A study of Mus musculus with 4 samples.

Results

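The synaptic vesicle and exocytosis genes are the genes of the machinery that stores transmitter in vesicles and fuses those vesicles with the plasma membrane. They were chosen by gene symbol: every probe set whose single platform symbol was a Vamp, Snap, Stx, Stxbp, Syt, Cplx, Syn1 to Syn3, Sv2, Syp, Synpr, Syngr, Rab3, Rims or Unc13 gene with the numbers or letters of the family. A probe set is a handful of short oligonucleotides on the array that together give a single reading of a transcript. The rule gave 174 probe sets of 74 genes, of 45037 probe sets and 18193 genes in all. The rule itself used no measured value, but members were chosen with earlier results of these data known. Of the 13 genes taken as the core of the release machinery, 2 were not analysed here.

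RNA from mouse brain, hindbrain and spinal cord was hybridised to 4 arrays. Nugen-amplified cDNA was the target on 2 of them, and antisense RNA (aRNA) made by T7-based amplification on the other 2. Each preparation has 1 array numbered 0 and 1 array numbered 1. The labels give no strain, age, sex, treatment or number of animals. They say neither what the numbers mean nor whether the preparations shared their RNA. The p-values therefore reflect how far these 4 arrays varied and nothing wider. Sex-linked transcripts differed widely between the 2 aRNA arrays (values below), so the spread of that pair is not taken as technical alone. Whether the spread between the 2 cDNA arrays is technical was not tested.

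A vesicle fuses when a SNARE protein of its membrane (a Vamp) zips together with SNAREs of the target membrane (a syntaxin, Stx, and a Snap protein). Syntaxin-binding proteins, Rab3, Rims and Unc13 proteins dock and prime the vesicle, complexins hold and assist the assembled SNAREs, and synaptotagmins sense calcium. Synapsins tether vesicles in reserve. Neurons use the brain forms for transmitter release, and many syntaxins and Vamps serve traffic through the endosome, the Golgi and the endoplasmic reticulum in all cells.

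Levels below are log2(intensity + 16), and differences are cDNA minus aRNA on that scale, which understates the change of dim probe sets. Each pair of values is given as array 0, then array 1, and levels are set side by side only within a probe set. Background was the 95th percentile of 27 control probe sets for Bacillus transcripts on each array: log2 7.83 and 8.05 for cDNA, 7.12 and 7.15 for aRNA. The deposited values were already scaled to an equal mean, so total signal cannot be compared between the preparations. Probe sets whose mean over the arrays reached the median of all of them (8.38) were tested, and a call is a limma adjusted p under 0.05 over all 22519 probe sets tested. With 2 arrays against 2, an exact permutation test of any single value cannot go below 0.333, so the calls rest on limma's pooling of the spread across probe sets.

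Sex-linked transcripts differed between the arrays, most of all between the 2 aRNA arrays. Xist, the RNA that silences an X chromosome in females, read 11.94 and 12.51 on cDNA against 8.55 and 15.44 on aRNA at 1436936_s_at. Eif2s3y, a gene of the Y chromosome, read 7.92 and 4.75 on cDNA against 13.12 and 6.79 on aRNA at 1417210_at. aRNA array 0 had the lowest Xist and the highest Eif2s3y value, and counts are also given without it. Array 1 minus array 0 had the same sign in both preparations, cDNA first: 0.57 and 6.88 for Xist, −3.17 and −6.33 for Eif2s3y. Eif2s3y lay under background on both arrays numbered 1. All 12 neuron markers were tested, with 2 called higher on cDNA and 3 lower (median −0.22). At the brightest probe set per gene, 21.9% of all genes were called higher and 22.9% lower. The summed intensity of these markers, which rests most on the brightest of them, ranged from 682227 to 783437 on cDNA and from 676403 to 758422 on aRNA. Of the labelled regions, the cerebellar genes were both higher on cDNA, Cbln1 by 4.38 and Pcp2 at least 52.7-fold with aRNA array 1 under background. Of the caudal neural tube genes, Hoxc8 lay under background on every array. Hoxc10, too dim to be tested, read 6.45 and 6.67 on cDNA against 7.70 and 7.85 on aRNA. It lay above background only on the aRNA arrays, where the background level was lower. The forebrain gene Emx1 was above background on every array and was not called (0.73). The summed intensity of the microglia markers was 47361.7 and 78310.9 on cDNA against 12243.9 and 83237.7 on aRNA. Of these 8 markers, 2 were called higher on the arrays numbered 1, beside 0.0622% of all probe sets called between the numbers. They were C1qa (limma adjusted p = 0.0175) and Tyrobp (limma adjusted p = 0.022). The 6 meningeal fibroblast markers had a median difference of 3.0 between the preparations, with 4 called higher on cDNA and 1 lower. The part of these differences in the results was not tested. In tissue RNA, fewer cells of a type and less RNA per cell cannot be told apart.

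Of the 174 probe sets, 133 (76.4%) passed the filter, and they covered 65 of the 74 genes. The filter used the mean of the 4 arrays, so a probe set dim on one preparation could pass through the other. Such calls, with the dimmer mean under 8.38, included Vamp2 1420833_at (7.79, aRNA), Stxbp2 1448341_a_at (7.56, aRNA) and Cplx2 1436383_at (6.84, aRNA). Rab3d 1418891_a_at (6.90, cDNA) and Syngr1 1419289_a_at (8.27, cDNA) were others. Counts by family and gene include them. The 9 genes without a tested probe set were Cplx3, Cplx4, Stx11, Stx19, Syngr4, Syt6, Syt8, Syt10 and Syt16. Of the 41 probe sets left out, 40 lay under background on at least 1 array. Cplx3 and Cplx4, complexins of the retina, and Stx19 lay under background on every array. Only 3 tested probe sets had an array under background, 1 each of Cplx2, Rab3d and Syngr1, and for these the fold is given as a lower bound against the background level.

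The release genes differed between the preparations in both directions, about as widely as all probe sets tested. Between cDNA and aRNA, limma called 64 of the 133 tested probe sets (48.1%), beside a background of 43.2% of all probe sets tested. Of these, 31 were higher on cDNA (23.3%; background 20.2%) and 33 were lower (24.8%; background 22.9%). The shares lay near the background, so the count is no result about these genes. With each array centred on its median, 26 were higher and 40 lower, and the higher share of the calls went from 48.4% to 39.4%. Without aRNA array 0, 24 were higher and 21 lower. The median difference was −0.21, against −0.11 over all probe sets tested, and the median size of a difference was 0.94 against 0.88. Both cDNA arrays lay on one side of both aRNA arrays at 103 probe sets (77.4%, and 73.8% of all). The median gap within a preparation was 0.40 for cDNA and 0.32 for aRNA. With 1 probe set per gene, the brightest, 19 of 65 genes were called higher (29.2%; background 21.9% of 11945 genes) and 12 lower (18.5%; background 22.9%). The median was 0.20, against −0.059 over all of those genes.

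**Figure D1:**
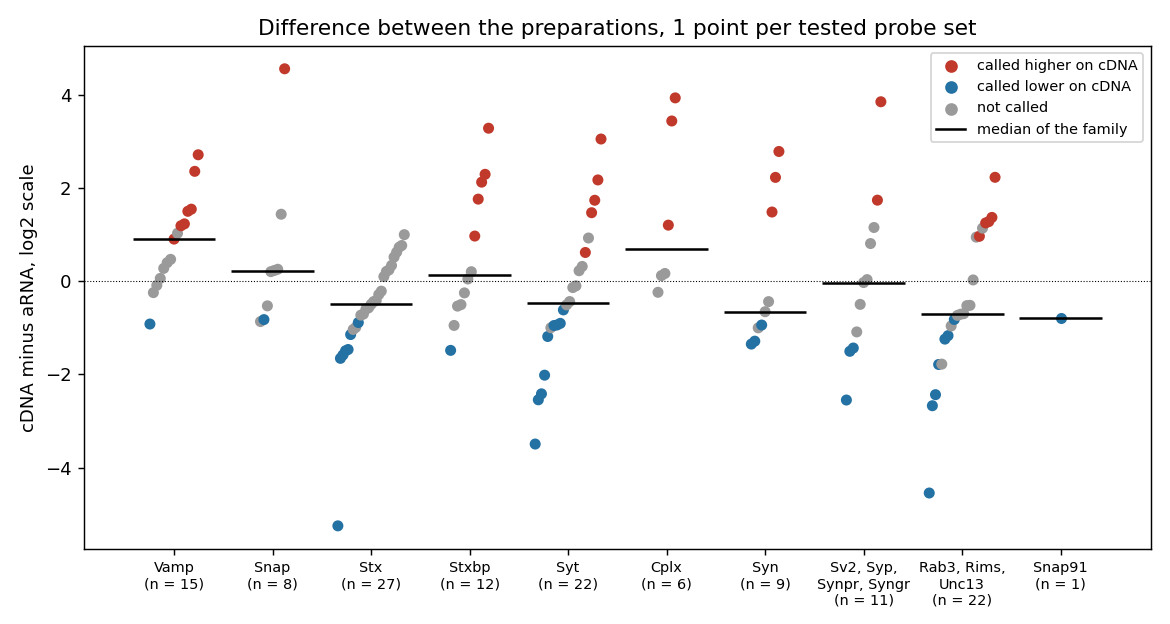
Each point is 1 of the 133 tested probe sets, placed by its cDNA minus aRNA difference (log2 scale) and its family, with n tested; red and blue mark limma calls and the bar is the family median. Vamp and Cplx have the highest medians (0.90 and 0.68), and no Stx probe set was called higher on cDNA.

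Families are described by how their calls were split, with no test of the difference between families. Over all probe sets tested, 20.2% were called higher on cDNA and 22.9% lower. Among the vesicle SNAREs, 7 of 15 tested Vamp probe sets were called higher on cDNA, 1 was called lower and 7 were not called, with a median of 0.90. Among the syntaxins the order was the other way: none of 27 was called higher and 20 were not called, with a median of −0.50. The 7 called lower were 25.9% of the 27, near the share over all probe sets tested. Synaptotagmins gave 5 higher, 9 lower and 8 not called (median −0.47). Complexins gave 3 higher, 0 lower and 3 not called (median 0.68). Of the 12 Stxbp probe sets 5 were higher and 1 was lower, and of the 9 of the synapsins 3 were higher and 3 lower. The vesicle membrane proteins gave 2 higher and 3 lower of 11, and Rab3, Rims and Unc13 together gave 5 higher and 7 lower of 22. Probe sets of the same gene were counted apart here, and single genes gave many of the calls. Vamp3 gave 4 of the 7 higher Vamp calls, Cplx2 all 3 of the complexins and Stxbp2 3 of the 5 higher Stxbp calls. Syt11 and Syt4 gave 5 and 2 of the 9 lower synaptotagmin calls. When each array was centred on its own median, the median over all probe sets tested shifted by −0.15, and the family medians kept their sign except Stxbp, which went from 0.12 to −0.025.

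Vamp2, also called synaptobrevin 2, is the main vesicle SNARE of transmitter release. Its brighter tested probe set, 1420834_at, read 12.75 and 14.13 on cDNA against 12.35 and 12.48 on aRNA. Both cDNA arrays lay above both aRNA arrays, but the cDNA arrays also lay 1.38 apart, and the difference of 1.03 (SE 0.41) was not called (limma adjusted p = 0.0697). Without cDNA array 0 it was 1.72 and was called (limma adjusted p = 0.00411). The dimmer probe set 1420833_at read 10.80 and 10.19 on cDNA against 7.73 and 7.84 on aRNA. That difference of 2.71 (SE 0.48) was called (limma adjusted p = 0.00212), and no arrays of the 2 preparations overlapped.

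Vamp3, or cellubrevin, the vesicle SNARE of recycling endosomes in most cell types, was higher on cDNA at all 4 tested probe sets. The largest difference was at 1433693_x_at, which read 11.47 and 11.82 on cDNA against 9.04 and 9.54 on aRNA (2.35, SE 0.38, limma adjusted p = 0.00139). The other Vamp3 probe sets differed by 0.90 to 1.54. Vamp8, the endosomal SNARE, read 10.84 and 11.76 against 10.17 and 9.98, and was also called higher on cDNA (1.23, limma adjusted p = 0.0366). Vamp5 and Vamp7 had no call at 3 tested probe sets. Vamp1, the vesicle SNARE of spinal cord and brainstem neurons, was not called at either probe set: 1421863_at read 16.14 and 16.12 on cDNA against 16.20 and 16.24 on aRNA, a difference of −0.090 (SE 0.16).

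Vamp4, a SNARE of the trans-Golgi network, was called in both directions. At 1422896_at it read 12.09 and 12.08 on cDNA against 10.73 and 10.44 on aRNA, 1.50 higher on cDNA (limma adjusted p = 0.00476). At 1422895_at it read 12.80 and 13.31 on cDNA against 14.09 and 13.85 on aRNA, a difference of −0.92 (limma adjusted p = 0.0192). At the third probe set, 1434796_at, the difference was 0.058 and the arrays overlapped. The direction for Vamp4 thus depended on which of its probe sets was read.

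Snap25, the SNARE of the nerve terminal membrane, showed the widest split among the core genes. At 1416828_at it read 16.88 and 17.01 on cDNA against 16.71 and 16.72 on aRNA, a difference of 0.23 (SE 0.15) that was not called (limma adjusted p = 0.256). At 1447763_at it read 16.17 and 16.42 on cDNA against 11.50 and 11.98 on aRNA. The latter difference, 4.55 (SE 0.24, limma adjusted p = 9.09e-06), was the largest upward difference among the 133. The first probe set was at nearly the same level on the 4 arrays, and the second was far dimmer on aRNA than on cDNA.

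Of the other Snap genes, Snap47, a brain SNARE that is not anchored by fatty acids, was called lower on cDNA at 1423745_at, with 15.19 and 15.02 on cDNA against 15.82 and 16.04 on aRNA (−0.82, SE 0.19, limma adjusted p = 0.00705). Its other probe set, 1438176_x_at, differed by 0.20 and was not called. Snap23 and Snap29, the forms found in most tissues, had no call at 4 tested probe sets, with differences from −0.87 to 1.43. Snap91 shares only the letters of its symbol: it is AP180, a clathrin assembly protein of vesicle retrieval. It read 14.78 and 14.77 on cDNA against 15.42 and 15.72 on aRNA, and was called lower on cDNA (−0.79, SE 0.19, limma adjusted p = 0.0104).

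Stx1a, the syntaxin that pairs with Snap25, was not called. At 1437390_x_at it read 10.69 and 10.21 on cDNA against 9.77 and 9.69 on aRNA, a difference of 0.73 (SE 0.39, limma adjusted p = 0.166). Of the 5 tested probe sets of the plasma membrane syntaxins, only that of Stx4a was called: it read 12.64 and 12.09 on cDNA against 13.66 and 13.36 on aRNA (−1.15, limma adjusted p = 0.0106). Stx2 and Stx3 had differences of −0.99, −0.29 and −1.04, none of them called.

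The other 6 syntaxin calls were at genes of the endosome, the Golgi and the endoplasmic reticulum, where 22 probe sets were tested and 16 were not called. Stx6, a trans-Golgi and early endosome syntaxin, had the largest difference of all 133 probe sets. Its 1460004_x_at read 8.50 and 8.35 on cDNA against 13.34 and 14.00 on aRNA, so the cDNA arrays stood close to their background and the aRNA arrays far above theirs (−5.25, SE 0.35, limma adjusted p = 2.79e-05). Its other tested probe sets differed by −1.47 (called), 0.10 and 1.0. The name ending _x_at marks probe sets whose oligonucleotides may also match other transcripts. It is also borne by every tested Vamp3 probe set but 1433916_at, every Stxbp2 probe set but 1448341_a_at, and Syt11 1456464_x_at.

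Stx16, another trans-Golgi syntaxin, read 12.44 and 11.88 on cDNA against 13.65 and 13.99 on aRNA (−1.66, SE 0.28, limma adjusted p = 0.00186). Stx7, of late endosomes, read 13.27 and 13.33 against 14.89 and 14.70 (−1.49, SE 0.21, limma adjusted p = 0.000724). Stx17, which acts in autophagosome fusion, read 8.14 and 8.78 against 10.41 and 9.68 at 1427925_at (−1.58, SE 0.50, limma adjusted p = 0.031), while its other 3 tested probe sets were not called. In each of these 3 genes the called probe set was dimmer on either cDNA array than on either aRNA array. Stx5a, Stx8 and Stx12 had no call at 7 tested probe sets, and Stx18 had 1 call, lower on cDNA, at 5.

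Stxbp2, or Munc18-2, which chaperones syntaxins in secretory cells outside neurons, was higher on cDNA at all 3 tested probe sets. At 1448341_a_at it read 11.59 and 10.10 on cDNA against 7.61 and 7.51 on aRNA (3.28, SE 0.57, limma adjusted p = 0.00203). The cDNA arrays lay 1.49 apart there but both stood above the aRNA arrays. The other probe sets differed by 2.12 and 2.29. Stxbp4, or Synip, which binds Stx4, was called higher on cDNA at 1455706_at, with 10.82 and 10.50 against 8.68 and 9.13 (1.76, SE 0.42, limma adjusted p = 0.0093), but its 1451063_at was not called (−0.54).

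Stxbp5, or tomosyn, which occupies the place of Vamp2 in SNARE complexes and limits release, was called both ways. At 1430301_at it read 12.72 and 12.57 on cDNA against 11.67 and 11.69 on aRNA (0.97, limma adjusted p = 0.0183). At 1453021_at it read 8.99 and 9.59 on cDNA against 10.47 and 11.08 on aRNA (−1.48, limma adjusted p = 0.0219). The third probe set differed by −0.95 and was not called (limma adjusted p = 0.0509). Stxbp3 and Stxbp6 had no call at 4 tested probe sets.

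Syt1, the calcium sensor of fast release, was not called at either tested probe set. At 1433884_at it read 10.90 and 11.63 on cDNA against 11.57 and 11.98 on aRNA, overlapping (−0.51, SE 0.36, limma adjusted p = 0.277). At 1438282_at the difference was 0.92 (SE 0.55, limma adjusted p = 0.203). The 2 probe sets thus had opposite signs, and neither was called. Syt2, the fast sensor of hindbrain and spinal cord synapses, was called higher on cDNA at 1440323_at, with 15.20 and 14.95 against 14.35 and 14.57 (0.61, limma adjusted p = 0.0384), and was not called at its other 2 probe sets.

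Syt11, a synaptotagmin that does not bind calcium, was lower on cDNA at all 5 tested probe sets, by −0.62 to −3.49. The largest was at 1456464_x_at, which read 12.66 and 13.20 on cDNA against 16.22 and 16.62 on aRNA (SE 0.25, limma adjusted p = 3.55e-05). At 1429314_at it read 13.89 and 13.86 against 16.13 and 16.45 (−2.42, SE 0.20, limma adjusted p = 6e-05). No arrays overlapped at any Syt11 probe set. Syt4, which is induced by neuronal activity, was lower on cDNA at both of its probe sets. Its 1415844_at read 12.37 and 13.45 on cDNA against 14.62 and 15.23 on aRNA (−2.02, SE 0.36, limma adjusted p = 0.00242), and 1415845_at differed by −0.95.

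Syt3 and Syt13 were higher on cDNA. Syt3, a calcium sensor of high affinity, read 12.81 and 12.37 on cDNA against 10.27 and 10.57 on aRNA (2.17, SE 0.32, limma adjusted p = 0.000895). Syt13, a synaptotagmin that does not bind calcium, read 10.63 and 11.39 against 9.28 and 9.28 (1.73, SE 0.41, limma adjusted p = 0.0093). Syt9, a calcium sensor, was higher by 1.47 (limma adjusted p = 0.0368). Syt14 was lower on cDNA, with 9.57 and 9.04 against 10.26 and 10.72 (−1.19, limma adjusted p = 0.0491), a call just inside the threshold. Syt5, Syt12 and Syt17 were not called at their 1 tested probe set each.

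Syt7, the slow calcium sensor of asynchronous release and facilitation, was called both ways. At 1441927_at it read 13.76 and 14.57 on cDNA against 10.66 and 11.57 on aRNA (3.05, SE 0.38, limma adjusted p = 0.000394). At 1460081_at it read 10.68 and 10.60 on cDNA against 11.59 and 11.50 on aRNA (−0.91, SE 0.32, limma adjusted p = 0.0451). The third tested probe set, 1439633_at, differed by −1.0 and was not called (SE 0.41, limma adjusted p = 0.0781). The arrays of the preparations did not overlap at any of the 3, and each difference was larger than the gap within a preparation.

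The complexins, small proteins that bind the assembled SNARE complex, split by gene. Cplx1, a brain complexin, was not called at any of 3 probe sets. At 1417746_at it read 16.55 and 16.82 on cDNA against 16.35 and 16.77 on aRNA, overlapping (0.12, SE 0.19, limma adjusted p = 0.647), with the sign reversed to −0.031 when arrays were centred on their medians. The other probe sets differed by 0.16 and −0.24. Cplx2, its close relative in brain, was higher on cDNA at all 3. Its 1421477_at read 13.32 and 14.55 on cDNA against 10.21 and 9.80 on aRNA (3.93, SE 0.41, limma adjusted p = 0.000174), the second largest upward difference of the 133 after that of Snap25.

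At the dimmest Cplx2 probe set, 1436383_at, the arrays read 9.67 and 10.87 on cDNA against 6.36 and 7.31 on aRNA. aRNA array 0 lay under its background there, so the cDNA arrays were at least 8.31-fold brighter (limma adjusted p = 0.00259). The third, 1455672_s_at, differed by 1.20. Every Cplx2 value on a cDNA array lay above every value of that probe set on an aRNA array.

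Synapsins coat vesicles and hold them in reserve. Syn1 read 14.29 and 14.67 on cDNA against 11.63 and 11.78 on aRNA, and was higher on cDNA by 2.78 (SE 0.25, limma adjusted p = 8.98e-05). Syn3 was called lower on cDNA at 1435311_s_at, with 11.38 and 10.93 against 11.84 and 12.35 (−0.94, limma adjusted p = 0.046), and was not called at 1435310_at (−0.44).

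Syn2 was tested at 6 probe sets and called both ways, with 2 higher, 2 lower and 2 not called. The brightest, 1428460_at, read 16.01 and 16.17 on cDNA against 14.68 and 14.53 on aRNA (1.48, SE 0.18, limma adjusted p = 0.000373). The dim 1440762_at read 10.50 and 11.14 against 8.14 and 9.05 (2.22, limma adjusted p = 0.00601). In the other direction, 1435511_at read 12.79 and 12.26 on cDNA against 13.59 and 14.16 on aRNA (−1.35, limma adjusted p = 0.00625). At 1449030_at the values were 9.21 and 9.87 against 10.91 and 10.74 (−1.29, limma adjusted p = 0.0303). The 6 probe sets of Syn2 therefore spread from −1.35 to 2.22, and in none of them did the preparations overlap.

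Of the vesicle membrane proteins, Syp (synaptophysin), an abundant marker of small vesicles, had 1 tested probe set. 1448280_at read 15.93 and 16.10 on cDNA against 12.27 and 12.06 on aRNA (3.85, SE 0.21, limma adjusted p = 1.1e-05). The gap within a preparation was 0.17 for cDNA and 0.21 for aRNA. Sv2a, the vesicle protein bound by levetiracetam, read 12.62 and 12.89 against 13.17 and 12.39, overlapping (−0.030, SE 0.31, limma adjusted p = 0.947). Its sign turned to 0.36 without aRNA array 0, and it was never called.

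Sv2b, the related form, was lower on cDNA at both probe sets by nearly the same amount. 1434800_at read 13.72 and 13.59 on cDNA against 15.17 and 15.14 on aRNA (−1.50, SE 0.20, limma adjusted p = 0.000519), and 1435687_at read 12.41 and 12.37 against 13.90 and 13.75 (−1.43, SE 0.24, limma adjusted p = 0.00153). Syngr2, a synaptogyrin of most tissues, was called higher on cDNA at 1417081_a_at, with 11.52 and 11.52 against 9.29 and 10.28 (1.74, SE 0.41, limma adjusted p = 0.00927). Sv2c, Syngr3 and Synpr had no call at their tested probe sets.

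Syngr1, the neuronal synaptogyrin, depended on the probe set and on 1 array. 1419289_a_at read 8.54 and 8.01 on cDNA against 9.71 and 11.94 on aRNA. With cDNA array 1 under background, the cDNA arrays were at least 5.77-fold dimmer (limma adjusted p = 0.0162), and the aRNA arrays lay 2.23 apart. The other tested probe set, 1434661_at, read 13.84 and 13.54 against 13.70 and 13.61, a difference of 0.032.

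The Rab3 proteins are the small GTPases of the vesicle surface. Rab3a, the main form in brain, was called higher on cDNA at 1422589_at, with 16.22 and 16.45 on cDNA against 15.23 and 15.53 on aRNA (0.96, SE 0.19, limma adjusted p = 0.00376). Its other probe set, 1459980_x_at, differed by −1.78 with the preparations overlapping and was not called. Rab3b was also called higher, with 13.71 and 13.38 against 12.46 and 12.13 (1.25, limma adjusted p = 0.00522). Rab3c went the other way at 3 of 4 tested probe sets. The largest, at 1435047_at, came from 12.18 and 11.88 on cDNA against 14.77 and 14.62 on aRNA (−2.67, SE 0.24, limma adjusted p = 8.23e-05), and the fourth was −0.96 and not called.

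Rab3d, the form of secretory granules, was called both ways. 1418891_a_at read 4.84 and 8.96 on cDNA against 11.41 and 11.48 on aRNA. cDNA array 0 lay under background, so the cDNA arrays were at least 8.27-fold dimmer (limma adjusted p = 0.00915), and they lay 4.12 apart from each other. 1449259_at read 10.58 and 10.28 on cDNA against 9.23 and 9.07 on aRNA (1.28, SE 0.41, limma adjusted p = 0.0321). The third tested probe set differed by −0.52 and overlapped.

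Rims proteins tether calcium channels and vesicles at the active zone. Rims1 was higher on cDNA at 1438305_at, with 13.82 and 13.50 on cDNA against 11.66 and 11.21 on aRNA (2.23, SE 0.28, limma adjusted p = 0.00042), but at 1435667_at it differed by only 0.026 with the arrays overlapping. Rims2 was lower on cDNA at 1450761_s_at, with 10.26 and 9.85 against 12.25 and 11.44 (−1.79, SE 0.39, limma adjusted p = 0.00595), and its other 2 tested probe sets, at −0.70 and −0.71, were not called.

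Rims4 was not called at its tested probe set (0.94). Rims3 was called both ways: 1435971_at read 11.33 and 12.76 on cDNA against 10.85 and 10.51 on aRNA (1.37, limma adjusted p = 0.0401), and 1459042_at read 9.21 and 9.07 against 10.31 and 10.45 (−1.24, limma adjusted p = 0.0344). Unc13 proteins (Munc13) open syntaxin for priming. Unc13a, the main form of excitatory terminals, was not called, with 10.54 and 9.98 on cDNA against 11.38 and 10.19 on aRNA (−0.53, SE 0.47, limma adjusted p = 0.392), and its sign turned to 0.071 without aRNA array 0. Of the other Unc13 probe sets, 1 of 3 was called, Unc13c 1455304_at at −1.17, lower on cDNA.

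**Figure D2:**
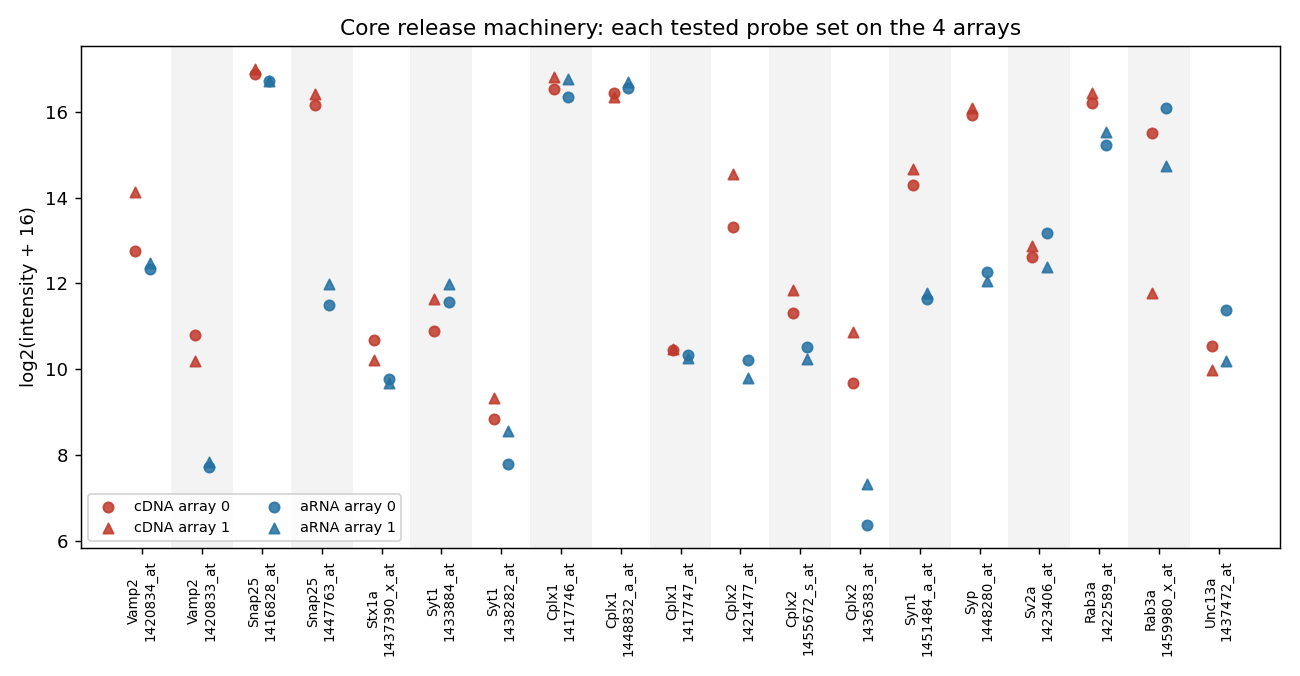
Each tested probe set of the core release genes is shown with its log2(intensity + 16) on cDNA arrays 0 and 1 (red) and aRNA arrays 0 and 1 (blue), circles for number 0 and triangles for number 1. Snap25 1447763_at, Cplx2 1421477_at, Syp and Syn1 lie higher on both cDNA arrays, by 2.78 to 4.55, and Rab3a 1459980_x_at has a low value of 11.77 on cDNA array 1.

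Of the 40 called probe sets named above by rule, 16 lost their call when at least 1 array was left out, each with its direction kept. A fit without an array leaves 1 array in a group, so a call can end through lost precision with little change in the difference. The calls of Syt7 1460081_at (−0.86 without aRNA array 0) and Syt14 (−0.96 without aRNA array 1) each ended for 3 or more of the 4 arrays, left out singly. So did those of Stx17 1427925_at (−1.22) and Syn2 1449030_at (−1.20), both values without aRNA array 0. The same held for Stxbp5 1430301_at (0.89 without cDNA array 0), Rab3d 1449259_at (1.19 without aRNA array 1) and Rims3 1459042_at (−1.17 without aRNA array 1). The calls of Syn3, Rims3 1435971_at, Stxbp5 1453021_at and Vamp4 1422895_at each ended without either of 2 arrays, with limma adjusted p up to 0.252, 0.22, 0.175 and 0.118. The calls of Snap91 (−0.64) and Syngr1 (−1.43) ended for a single array only, both without aRNA array 1. Without aRNA array 0, Stxbp4 (1.53, limma adjusted p = 0.0533), Rims2 (−1.38, limma adjusted p = 0.0595) and Syngr2 (1.24, limma adjusted p = 0.0521) were no longer called.

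How well probe sets of a gene agreed was described over the 39 genes with at least 2 tested probe sets. Probe sets of a gene read different stretches of its transcripts and are not replicates. In 14 genes 2 or more were called, and in 6 of those (42.9%) they were called in both directions: Rab3d, Rims3, Stxbp5, Syn2, Syt7 and Vamp4. Over all genes it was 766 of 1688 (45.4%), a share near that of the release genes. Syn2 was called both ways under each alternative setting and with any 1 array left out; without aRNA array 0 it was the only one of the 6, and without aRNA array 1 only Syn2 and Vamp4 were. Signs differed in 20 of 39 genes (51.3%, and 55.2% over all genes), and in 11 of the 39 no probe set was called. Over all genes it was 1353 of 5034 without a call.

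The median range between the probe sets of a gene was 1.45, against 1.53 over all genes, and it was at least 2 in 14 genes (35.9%, and 38.1%). The widest ranges were in Stx6 (6.24), Rab3d (5.82), Snap25 (4.32) and Syt7 (4.05), and the narrowest in Sv2b (0.070) and Vamp7 (0.072). Of the 39 genes, 3 had every tested probe set called higher on cDNA, Cplx2, Stxbp2 and Vamp3. Another 3 had every one called lower, Sv2b, Syt4 and Syt11. Over all 5034 genes with at least 2 tested probe sets, 200 had every one called higher and 279 every one called lower. These counts take genes with at least 2 tested probe sets.

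**Figure D3:**
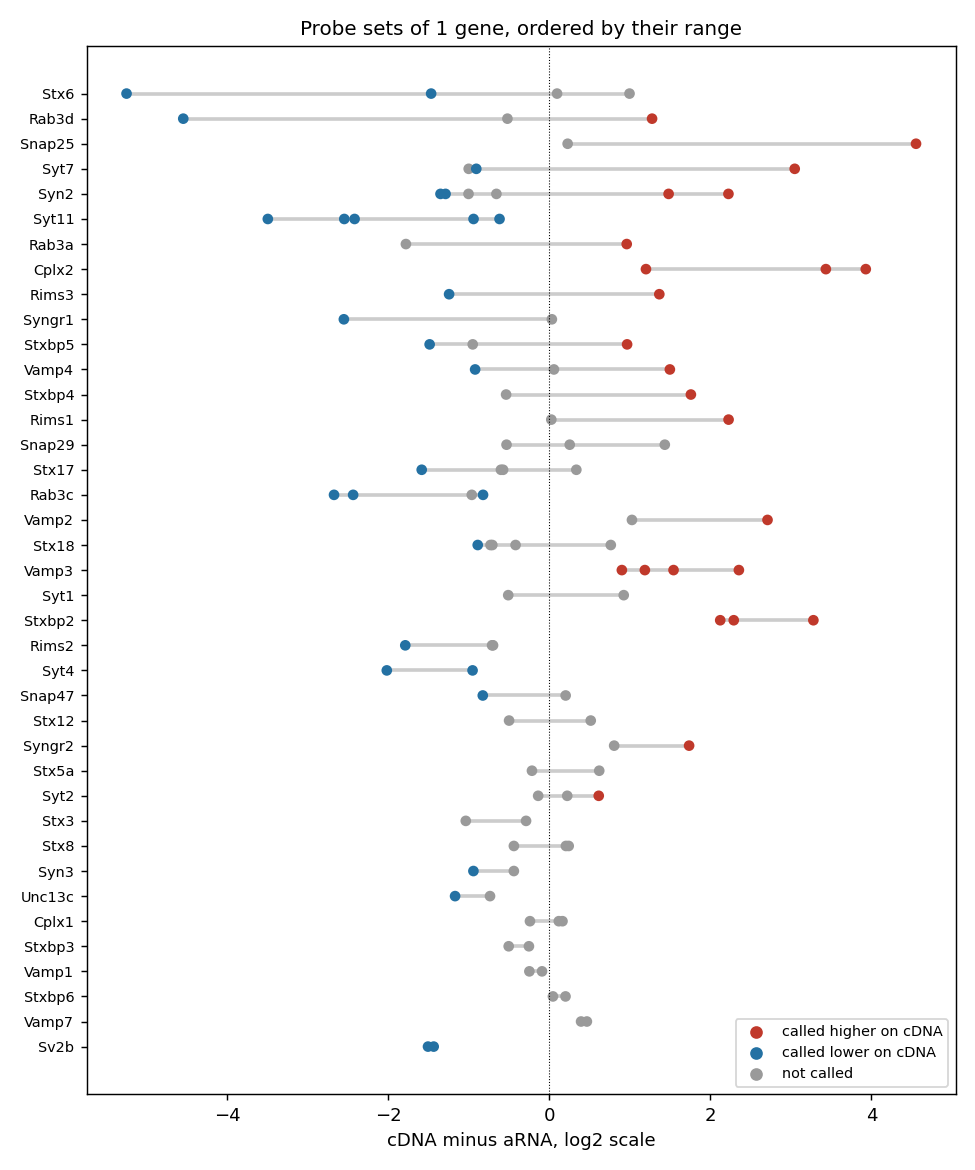
Each row is a gene with at least 2 tested probe sets and each point is the cDNA minus aRNA difference (log2 scale) of 1 probe set; rows are ordered by range. Stx6 spans 6.24 and Sv2b 0.070, and 6 genes have red and blue points.

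The ratio of the 2 brightest tested probe sets of a gene was also compared between the preparations, a test added after the values were seen. limma called 20 of 39 gene pairs, beside a background of 49.2% of the 5034 genes with such a pair, so the share is again near the background. For Snap25 the log2 ratio of 1416828_at to 1447763_at was 0.71 and 0.59 on cDNA against 5.21 and 4.74 on aRNA, a shift of −4.32 (SE 0.20, limma adjusted p = 7.78e-07). For Cplx1 the shift was 0.36 (limma adjusted p = 0.0875), and for Sv2b it was −0.070 (limma adjusted p = 0.836). These 3 genes were picked as examples with their values known. The median size of a shift was 0.98, against 1.11 over all genes. Leaving out a single array gave 13 to 19 called pairs.

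Between the arrays numbered 1 and 0, with the preparation as a term, limma called 1 of the 133 probe sets, lower on number 1, and none higher, beside a background of 0.0622% (14 of 22519). It was Rab3a 1459980_x_at. It read 15.51 on cDNA array 0 and 11.77 on cDNA array 1, and 16.10 on aRNA array 0 and 14.74 on aRNA array 1, so it was lower on number 1 in each preparation, by −3.74 and −1.36. The mean difference was −2.55 (SE 0.39, limma adjusted p = 0.0476). The call was just inside the threshold and was lost with pseudocount 64, with arrays centred on their medians, without the intensity trend and without the preparation term. The other Rab3a probe set did not share it: 1422589_at differed by 0.27 in the other direction, not called.

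With 1 residual degree of freedom, the number comparison had little precision. At an unadjusted p under 0.05 there were 10 of the 133 probe sets (7.52%), 6 higher and 4 lower, against 5.86% of all probe sets tested. The difference had the same sign in both preparations at 66 probe sets (49.6%), against 51.5% of all. Besides Rab3a, none of the 133 met a difference of at least 1 with the same sign in both preparations; Cplx2 1436383_at, at 1.20 for cDNA and 0.95 for aRNA, came nearest. Some large gaps occurred in a single preparation. Rab3d 1418891_a_at differed by 4.12 between the arrays with cDNA and by 0.068 between those with aRNA.

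**Figure D4:**
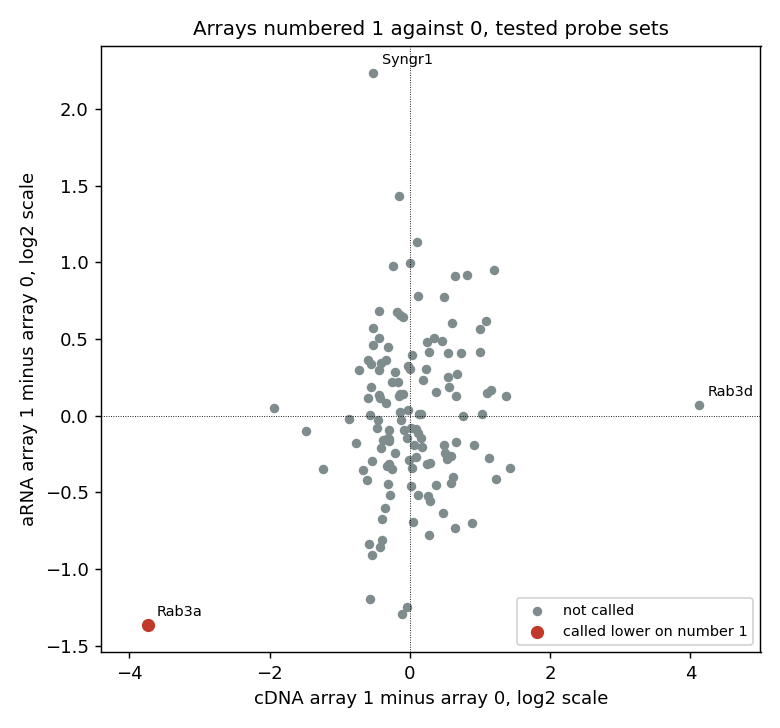
Each point is 1 of the 133 tested probe sets, by the array 1 minus array 0 difference (log2 scale) on cDNA (horizontal axis) and on aRNA (vertical axis). Rab3a 1459980_x_at, in red, is the only call (−3.74 and −1.36); Rab3d lies far to the right at 4.12 and Syngr1 at the top at 2.23.

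Other genes of the release pathway were read at 1 probe set each, the brightest, a reading at which 21.9% of all genes were called higher and 22.9% lower. Of 10 tested genes of the fusion machinery, 4 were called lower on cDNA and 3 higher (median −0.12). Nsf, the ATPase that takes SNARE complexes apart, differed by −1.28, its adaptor Napa (alpha-SNAP) by −1.12, Cadps, which primes dense-core vesicles, by −1.40, and Dnajc5, the vesicle chaperone CSP-alpha, by −0.97. On the other side stood Snapin, which binds Snap25 (4.59), Cadps2 (3.17) and Doc2a, a calcium sensor at which both aRNA arrays lay under background (at least 28.3-fold brighter on cDNA).

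Against the same background shares, of 10 tested active zone genes, 3 were called higher on cDNA and 1 lower (median 0.49): Erc1 at 3.82, Ppfia1 (a liprin-alpha) at 1.55 and Pclo (piccolo), a scaffold, at 1.24, and Ppfia2 at −1.96. Of 7 tested vesicle filling genes, 3 were higher and 3 lower (median 0.20). A vesicular glutamate transporter, Slc17a6 (1.50, limma adjusted p = 0.0429), and that for GABA, Slc32a1 (1.65, limma adjusted p = 0.0422), were higher. Both calls were just inside the threshold. On aRNA, Slc17a6 read 11.25 and 9.54 and Slc32a1 read 10.57 and 8.73, gaps wider than the differences between the preparations. The vesicular acetylcholine transporter Slc18a3 was lower (−2.47). Of 15 vesicle retrieval genes, 5 were higher and 6 lower (median 0.11). Dnm3, a dynamin, had the largest lower difference among them (−2.68), and Ap2a2, an adaptor subunit, the largest higher one (1.90).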

How the data were processed

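Intensity was deposited by the authors as 1 value per probe set and array on a linear scale; its equal trimmed mean on the arrays shows scaling, and the sources used here do not name the summarising software. Of the probe sets, 64 controls were left out. Symbols came from the platform annotation, and updating through RefSeq changed 0 member symbols; 1 probe set carrying a member symbol with another symbol was left out. log2(intensity + 16) was tested with limma 3.58.1 in R 4.3.3 (lmFit, eBayes with intensity trend, Benjamini-Hochberg adjustment over all probe sets tested): preparation alone (2 residual degrees of freedom), or preparation and number (1). The fits were run on simulated data with independent noise on each array and differences of known size added at a small set of probe sets. That setting is simpler than these arrays, so it checks the code and not the calls made here. With an array left out, the lone array is assumed to vary like the others. Figures used matplotlib 3.10.9 in Python 3.11.15.

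Named for the preparations were the core genes at their brightest tested probe set, up to 3 called probe sets per family and direction by size, and every gene called both ways; for the numbers, every call and those of at least 1 in both preparations. Other names were chosen after their values were seen. Members and lists were chosen with earlier results of these data known. The arrays' number limits the precision. Alternatives were the pseudocount, the filter, centring, quantile normalization, the trend, leaving out _x_at and _s_at probe sets, a replicate block and each array left out.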

Additional observations from a re-analysis of the deposited data

Results flagged for a closer look

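Among the probe sets left out by the filter on dim signal, 9 had both arrays of one preparation above background and both of the other under it, 8 of them above it on aRNA and 1 on cDNA. The background level was lower on aRNA (7.12 and 7.15) than on cDNA (7.83 and 8.05), which favours aRNA in such a count. No share over all probe sets left out was taken, so the split is no result about these genes. For 2 the bound reached 2-fold. Syt17 1422955_at was at least 2.30-fold brighter on aRNA, and Rab3c 1449798_at was at least 6.92-fold brighter on cDNA, opposite to the direction of the called Rab3c probe sets. None of the 9 was tested.

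At 4 tested probe sets the arrays numbered 1 and 0 differed by over 0.5 in opposite directions in the preparations, a difference that was not tested. Array 1 minus array 0 was 0.64 on cDNA and −0.73 on aRNA at Stx17 1427925_at, 0.88 and −0.70 at Stxbp3 1435058_x_at, −0.53 and 0.57 at Syn2 1435511_at, and −0.53 and 2.23 at Syngr1 1419289_a_at.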

How the results depend on the processing

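The count higher on cDNA was 31. It was 19 with the filter at the 75th percentile, which tests fewer probe sets, and 24 to 29 when 1 array was left out. The count lower on cDNA was 33, and 21 to 27 when 1 array was left out, with 21 without either aRNA array. Without the intensity trend, 28 were higher and 23 lower. With no filter on dim probe sets, which tests 174 member probe sets, the counts were also 28 and 23. With the number as a replicate block, 32 were higher, 33 lower and 20 gene pairs called, and 5 member calls changed. By limma adjusted p, Vamp2 1420834_at (0.021), Stx3 1425536_at (0.0251) and Rab3a 1459980_x_at (0.00282, lower on cDNA) were called. Syt14 (0.0513) and Syt7 1460081_at (0.0561) were not. Rab3a was then called both ways and Syt7 was not. The labels do not say that the numbers pair the samples, and across the tested members the number differences of the preparations correlated at 0.157 (0.0412 over all probe sets). Genes called both ways were 6, and 1 without aRNA array 0 and 2 without aRNA array 1 (1 to 4 when 1 array was left out). The called pairs were 13 to 19 when 1 array was left out. The 1 call between the numbers fell to 0 with pseudocount 64, with arrays centred on their medians, without the intensity trend, without _x_at and _s_at probe sets and without preparation as a term; the cause was not tested except for _x_at, where the probe set itself is left out. Signs reversed, at probe sets never called, for Cplx1 1417746_at (−0.031 centred on medians, −0.090 to 0.33 when 1 array was left out), Unc13a (−1.12 to 0.071) and Sv2a (−0.42 to 0.36). Apart from these, the named probe sets gave 528 values with the same direction and call, 59 no longer called and 3 newly called. The cause was not tested. Probe sets near background have only a bound.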
